A study of Mus musculus with 6 samples.

Results

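Of the 44600 autosomal tiles of 5 kb in which DNA methylation could be compared across all 6 libraries, 208 (0.466%) were higher in both hSTAT5BN642H libraries than in each of the 4 other libraries by at least 5 percentage points. A tile is a window of the mouse genome (GRCm38/mm10) that starts at a multiple of 5000 bases. It was tested where at least 5 CpGs had at least 10 reads in every library, and its level is the unweighted mean of the methylated share of reads at those CpGs. The tiles were chosen by these levels in these libraries, so the levels are given as a description without a test. The leading tiles lay in an intron of Ppp2r1b, which encodes a scaffold subunit of protein phosphatase 2A, in an intron of Esr1, the estrogen receptor gene, and in 2 adjacent windows of Camk2b, a gene for a calcium/calmodulin-dependent kinase. In or within 10 kb of a gene of the T cell, STAT5, epigenetic, cell cycle and lymphoma lists, 5 of 357 tested tiles (1.40%) were members, and the genes were Stat3 with Stat5a, Runx2, Cd247, Cxcr5, and Cd6.

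STAT5B is a transcription factor that is phosphorylated by Janus kinases downstream of cytokine receptors, and N642H is an activating mutation in its SH2 domain found in leukemia and lymphoma. CD8+ T cells were enriched magnetically from lymph nodes of C57BL/6N mice at 13 weeks of age, with 2 libraries per genotype and 1 mouse per library. The 3 genotypes were WT (wt), hSTAT5B (hSTAT5B +/T, a transgene for unmutated human STAT5B) and hSTAT5BN642H (a transgene for the mutant), and all mice kept their own Stat5 genes. Both transgenes are driven by the Vav1 promoter throughout the blood system and each is represented by 1 selected line. The hSTAT5BN642H mice were diseased at sampling, so that the mutant protein, the disease, the line and the makeup of the enriched cells cannot be told apart.

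DNA methylation in mammals is placed mainly on the cytosine of CpG dinucleotides. De novo enzymes set it, and a maintenance enzyme copies it when cells divide. Most CpGs outside regulatory regions are methylated, CpG islands (CGIs) at gene starts are mostly not, and intermediate levels are common at enhancers and where cells of a sample differ. The level of a tile is an average over cells, so a change in each cell and a change in the mix of cells cannot be told apart. Reduced representation bisulfite sequencing (RRBS) covers fragments cut at MspI sites, and bisulfite turns unmethylated cytosines, but not methylated ones, into bases read as T.

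The sequences below are the measured stretches of the 5 tiles with the largest gap between the lower hSTAT5BN642H library and the highest of the other 4, and of the Cd247 tile, the one listed gene of T cell receptor signalling that itself held a member tile. Each is the plus strand of GRCm38, 5′ to 3′, and capitals mark the CpGs that the rule used. They lie at chr9:50852987-50853090 in an intron of Ppp2r1b, chr10:4621195-4621401 in an intron of Esr1, chr8:124070589-124070738 in an intron of the long predicted gene model Gm20388, chr8:57436641-57436746 between genes with Scrg1 the nearest, chr11:6007198-6007429 in an intron of Camk2b, and chr1:165841160-165841345 in an intron of Cd247. None overlaps an annotated exon.
Ppp2r1b: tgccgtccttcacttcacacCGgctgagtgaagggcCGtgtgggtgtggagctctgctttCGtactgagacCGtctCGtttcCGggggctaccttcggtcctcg
Esr1: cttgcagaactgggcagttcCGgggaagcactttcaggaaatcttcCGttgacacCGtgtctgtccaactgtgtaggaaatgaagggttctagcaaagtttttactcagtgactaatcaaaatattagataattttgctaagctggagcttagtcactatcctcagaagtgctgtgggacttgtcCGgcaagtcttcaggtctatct
Gm20388: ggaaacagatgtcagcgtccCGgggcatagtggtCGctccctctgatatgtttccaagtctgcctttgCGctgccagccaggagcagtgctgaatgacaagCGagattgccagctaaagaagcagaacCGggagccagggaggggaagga
Scrg1: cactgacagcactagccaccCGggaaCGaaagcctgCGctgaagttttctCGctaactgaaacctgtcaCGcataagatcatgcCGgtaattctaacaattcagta
Camk2b: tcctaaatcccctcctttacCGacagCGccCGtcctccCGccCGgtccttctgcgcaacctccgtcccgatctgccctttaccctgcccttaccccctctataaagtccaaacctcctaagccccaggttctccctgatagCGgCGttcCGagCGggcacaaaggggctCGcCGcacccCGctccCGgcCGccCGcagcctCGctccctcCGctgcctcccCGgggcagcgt
Cd247: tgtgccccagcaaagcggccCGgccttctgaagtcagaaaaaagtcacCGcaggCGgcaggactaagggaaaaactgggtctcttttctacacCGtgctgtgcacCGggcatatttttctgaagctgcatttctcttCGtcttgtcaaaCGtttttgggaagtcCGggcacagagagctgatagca

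The Ppp2r1b stretch holds 6 measured CpGs in 104 bp, which were all those measured in its tile. The Camk2b stretch is the densest of these, with 18 measured CpGs in 232 bp. Over that stretch the mean level was 16.5% and 1.78% in WT, 6.27% and 5.54% in hSTAT5B, and 63.5% and 47.6% in hSTAT5BN642H. The Cd247 stretch, with 8 measured CpGs in 186 bp, was low in all libraries, at 6.67% and 8.72% in WT, 9.41% and 6.92% in hSTAT5B, and 20.4% and 24.1% in hSTAT5BN642H.

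The libraries listed 2597893 to 3445555 CpGs with 43291086 to 67007186 reads on them, and the mean level over all CpGs of the tested tiles was 54.3% to 54.9%. Reads carry no molecular identifiers, so depth gives counting error only. Markers of the labelled and of other cell types were read at CpGs within 1 kb of their starts with at least 5 reads in every library, and Cd8a, Cd3d, Cd3e, Cd3g, Cd4, and most others had no such CpG. The Cd8b1 start, which belongs to a chain of the CD8 coreceptor, had 6 CpGs at 37.8% and 37.8% in WT, 18.8% and 17.5% in hSTAT5B, and 8.51% and 11.8% in hSTAT5BN642H. Those of the B cell gene Cd79b were at 24.3% to 30.0% over the 6 libraries. The 17 CpGs at Zbtb7b, a CD4 lineage factor, were at 0.791% and 2.46% in WT, 0.672% and 1.62% in hSTAT5B, and 6.99% and 4.58% in hSTAT5BN642H. The Cd8b1 and Zbtb7b levels thus moved with genotype, and the part of cell makeup in the tiles below was not tested.

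The same rule was applied to each of the 14 other pairs of libraries, which gives the number of tiles that a pair reaches without sharing the mutation. Their counts ran from 11 (0.0247%), for WT replicate 2 with hSTAT5BN642H replicate 1, to 87 (0.195%), for WT replicate 2 with hSTAT5B replicate 2, with a median of 40. The 2 WT libraries gave 67 tiles (0.150%) and the 2 hSTAT5B libraries also gave 67 (0.150%). The 208 tiles of the hSTAT5BN642H pair were thus 2.39 times the highest other count. In the opposite direction, 247 tiles (0.554%) were lower in both hSTAT5BN642H libraries than in each other library by 5 points, against 23 to 113 for the other pairs. The size of this excess changed with the libraries used. Without WT replicate 1 there were 335 tiles and 214 for the highest other pair, without hSTAT5B replicate 1 326 and 267, and without hSTAT5B replicate 2 353 and 294. Without WT replicate 2 the count was 284, which is 1.17 times the next pair's 243. With hSTAT5BN642H replicate 1 alone it was 497, against 422 for the highest other library, and with replicate 2 alone 640, against 395. At any margin, 2714 tiles (6.09%) lay above and 5897 (13.2%) below the 4 other libraries in both hSTAT5BN642H libraries, so that the gains stood within a table in which losses were the more frequent.

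**Figure D1:**
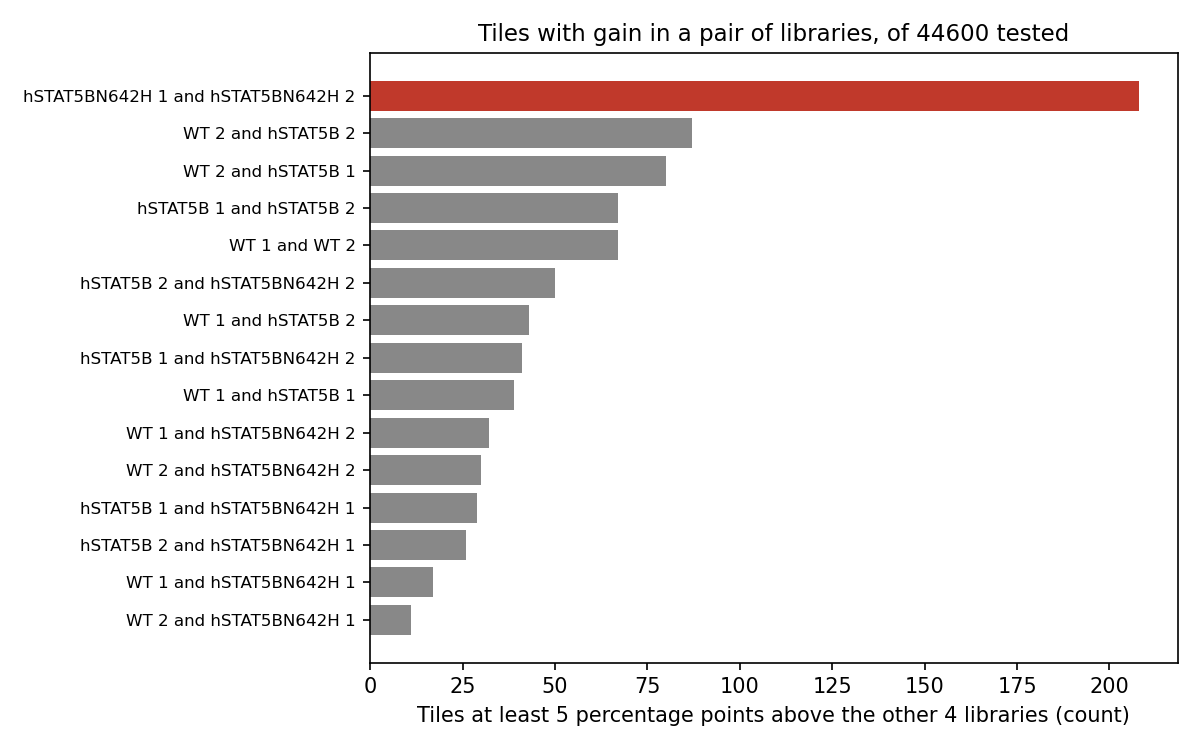
Number of tiles in which both libraries of a pair were at least 5 percentage points above each of the other 4, for the 15 pairs of libraries. The hSTAT5BN642H pair (red) has 208 tiles and the next pair has 87.

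The gap was 5.01 points at its lowest, 6.95 at the median, and 25.7 at its highest. It reached 10 points in 53 tiles, 15 in 15, and 20 in 4, and the mean of hSTAT5BN642H lay 6.88 to 37.8 points above that of the other 4, with a median of 13.0. For the other pairs, the median of that difference was 9.19 to 12.2 points. The last tiles inside the margin were nearest to Samsn1 with a gap of 5.03, Rapgef1 with 5.02, and in Gse1 with 5.01. Just outside it were tiles in Rsph1, with a gap of 4.99, and Plaur, with 4.98, and a tile in Car2 that fell just short of 5.

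Most of the tiles had an intermediate level to begin with. Their median level in WT was 47.3%, against 88.7% for all tiles tested, and 160 of them (76.9%) were between 20% and 80% in WT, against 16.3% of all. A further 34 were under 20% in WT and 14 were at 80% or more. By the mean of the 4 other libraries, gain was found in 0.176% of the 7968 tiles under 10%, in 3.36% of the 1787 tiles from 40% to 60%, and in 0.0700% of the 27140 tiles from 80% upward. Loss was found in 1.79% of the tiles from 40% to 60% and in 1.94% of those from 60% to 80%. An intermediate level was not particular to the hSTAT5BN642H pair. In the tiles chosen by the same rule for the 14 other pairs, 45.5% to 84.6% had a mean of 20% to 80% in the libraries outside the pair, and the hSTAT5BN642H tiles had 77.4%.

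**Figure D2:**
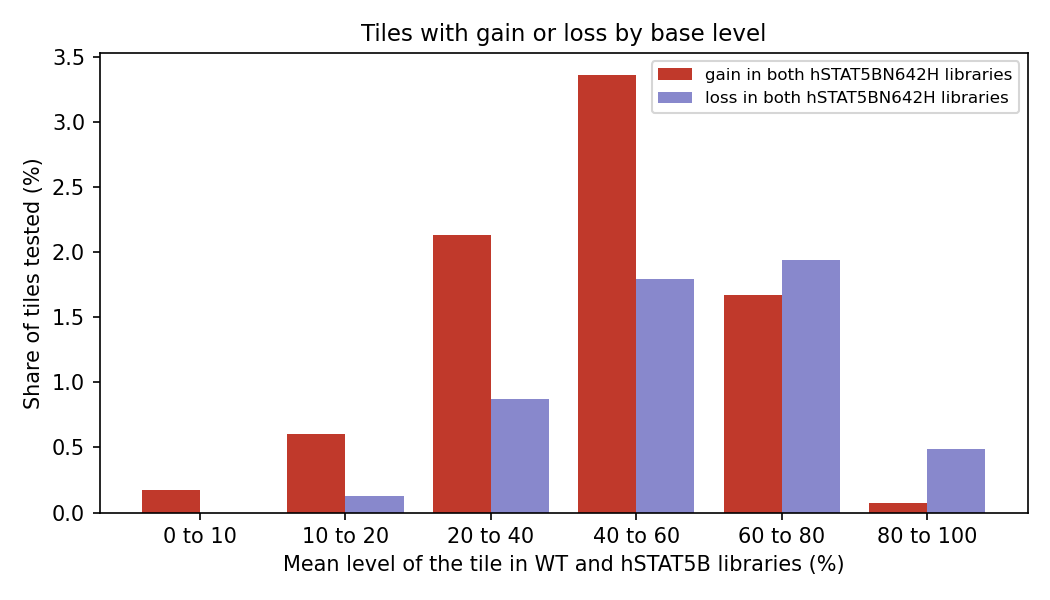
Share of tested tiles with gain (red) or loss (blue) of at least 5 points in both hSTAT5BN642H libraries, in classes of the mean level of the tile in the WT and hSTAT5B libraries (x axis, %). Gain reaches 3.36% in the class from 40% to 60% and is 0.0700% in the class from 80% to 100%.

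By library, the median level over the 208 tiles was 47.7% and 44.7% in WT, 49.9% and 48.7% in hSTAT5B, and 64.8% and 63.8% in hSTAT5BN642H, while over all tiles tested the 6 medians were between 87.5% and 89.0%. The hSTAT5BN642H libraries differed from each other by a median of 2.13 points in these tiles, against 4.17 for the WT libraries and 3.09 for the hSTAT5B libraries. The rule required both hSTAT5BN642H libraries to be high, so nothing is read from this order. Over all tiles the hSTAT5BN642H libraries differed by a median of 1.59 points. Replicate 1 of hSTAT5BN642H was the higher in 98 of the 208. Depth was slightly above that of all tiles. The median number of reads per CpG was 28.2 in the shallowest library of a tile, against 26.2 for all, and hSTAT5BN642H replicate 1 was the deepest, with 57.1 against 51.8. The part of depth in the gain was not tested.

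Within the tiles most CpGs had the higher mean in hSTAT5BN642H, while fewer were above each other library in both hSTAT5BN642H libraries. Of their 1893 CpGs, 888 (46.9%) were higher in both hSTAT5BN642H libraries than in each other library, against 3.95% of the 483029 CpGs of all tiles, and 87.2% had the higher mean in hSTAT5BN642H, against 40.7%. In 4 tiles every measured CpG was above the 4 other libraries, namely those of Ppp2r1b, Gm20388, Itga1, and Hbq1a, and in 2 tiles none was. These CpGs entered the rule. A second set did not, namely the CpGs with 5 to 9 reads in the shallowest library, of which 723 lay in 154 of the tiles. At these the median level was 50.7% and 44.6% in WT, 53.8% and 50.8% in hSTAT5B, and 65.7% and 68.1% in hSTAT5BN642H. The median difference was 7.31 points, smaller than at the CpGs used, and 112 tiles (72.7%) were higher, against 45.0% of all tiles with such CpGs and 42.9% to 70.6% of the tiles chosen for the 14 other pairs. The tiles of those pairs differed at their left-out CpGs by a median of -2.85 to 5.67 points. These CpGs come from the same libraries and often lie near those used, so they are not an independent sample.

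**Figure D3:**
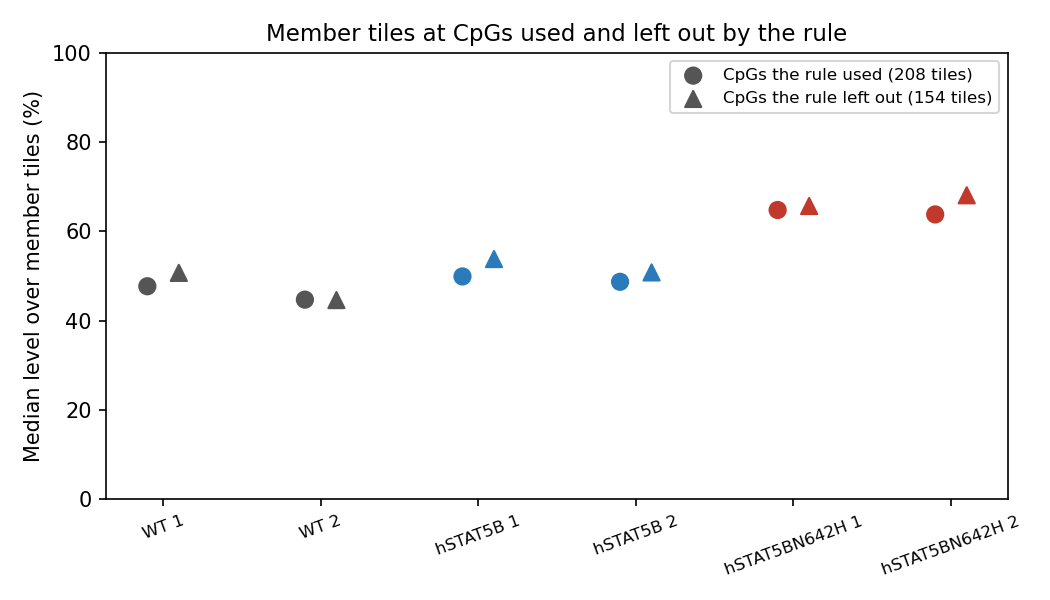
Median methylation level over the member tiles in each library, at the CpGs used by the rule (circles, 208 tiles) and at CpGs it left out for depth (triangles, 154 tiles). At the left-out CpGs the hSTAT5BN642H libraries are at 65.7% and 68.1%, and the other 4 are between 44.6% and 53.8%.

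Tested neighbours of member tiles showed little of the gain at the median, but most neighbours could not be tested. Among the 98 tested tiles next to a member, 58 (59.2%) had the higher mean in hSTAT5BN642H, against 39.7% of all tiles, and their median difference was 0.310 points, against -0.419. Both hSTAT5BN642H libraries were above each other library in 10 of them (10.2%, with 6.09% of all tiles). There were 5 pairs of adjacent member tiles. Members were found on all 19 autosomes, from 4 on chromosome 16 to 18 on chromosome 11, at 0.263% (chromosome 3) to 0.672% (chromosome 17) of the tiles tested.

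The 20 tiles with the largest gap mostly held 10 CpGs or fewer, as did most tiles tested. All CpGs were in introns in 9 of them and between genes in 6, against 71 and 77 of the 208. By the looser count of most CpGs, 40.4% of the 208 were in introns and 37.5% between genes, against 32.1% and 45.4% of all tiles tested. All 20 were at 20% to 80% in WT, and their median difference was 25.4 points. The Ppp2r1b tile was at 52.0% and 44.0% in WT, 40.7% and 40.5% in hSTAT5B, and 86.5% and 77.7% in hSTAT5BN642H, over 6 CpGs. Its gap of 25.7 points was the widest of the 208, and hSTAT5B was the lowest genotype there. The Esr1 tile was at 52.9% and 44.0%, 55.4% and 49.3%, and 78.5% and 80.6% in the same order, with 4 of 5 CpGs above. The Gm20388 tile was at 28.9% and 26.3%, 37.2% and 32.6%, and 68.6% and 59.8%, with all 6 CpGs above. WT and hSTAT5B overlapped at Esr1, while both hSTAT5B libraries were above WT at Gm20388 and below it at Ppp2r1b.

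The 2 Camk2b tiles were the only adjacent pair within the 20, and the first held 47 CpGs. That tile was at 43.8% and 33.4% in WT, 39.4% and 39.1% in hSTAT5B, and 69.7% and 63.8% in hSTAT5BN642H, with 28 CpGs above and 18 of the 47 in a CGI inside the gene. The second was at 57.7% and 61.1%, 68.7% and 68.2%, and 83.7% and 84.7%, with 7 of 8 CpGs above. With reads pooled over the tile the difference of the first tile was 18 points in place of 27.8, and with at least 5 reads per CpG that of the second was 12.2 in place of 20.3. The printed stretch covers 18 CpGs of the first tile, and there WT replicate 1 was higher than the other 3 libraries outside hSTAT5BN642H.

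**Figure D4:**
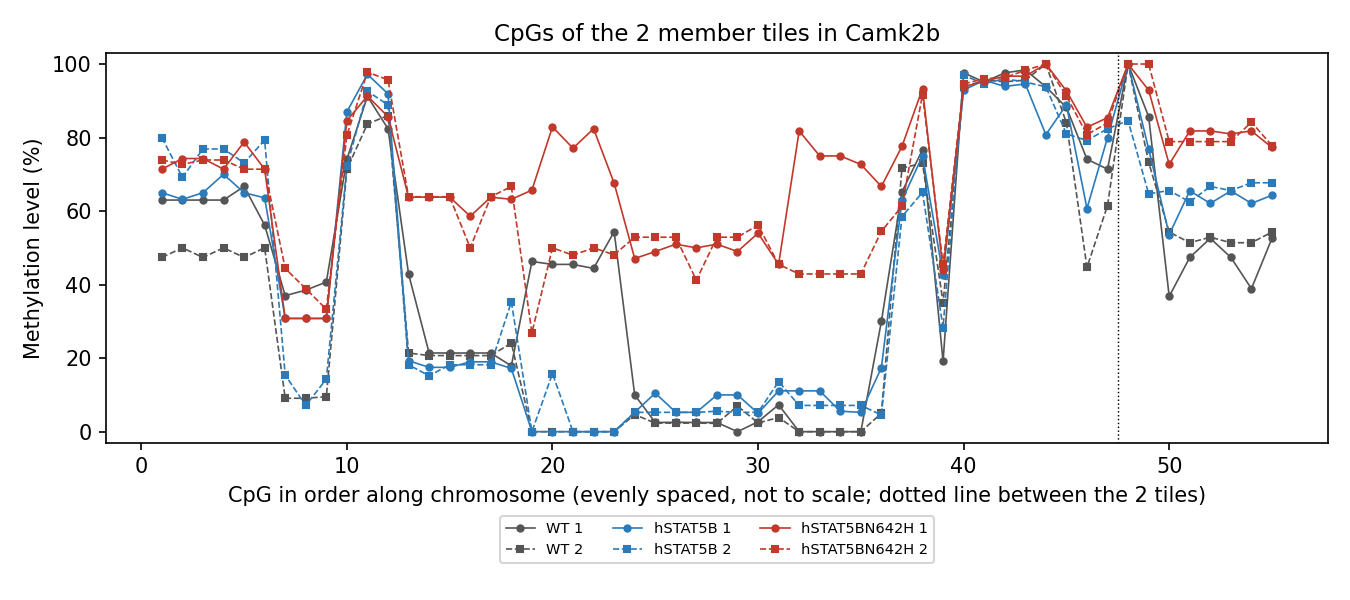
Methylation level (%) of each measured CpG of the 2 Camk2b tiles, in order along the chromosome and evenly spaced, with a line per library and a dotted line between the tiles. Both hSTAT5BN642H libraries (red) lie above the others over most of the first tile, and over the 18 CpGs of the printed stretch their means are 63.5% and 47.6%, against 1.78% to 16.5% in the other libraries.

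Among tiles between genes, the one nearest to Scrg1, 15923 bp away, was at 52.1% and 47.5% in WT, 48.3% and 56.0% in hSTAT5B, and 78.3% and 77.9% in hSTAT5BN642H. The tile nearest to Atoh8, which encodes a basic helix-loop-helix factor and lies 16177 bp away, was at 24.7% and 32%, 27.6% and 21.6%, and 51.5% and 52.4%. Itga1, the integrin chain of a collagen receptor, lay 108037 bp from a tile at 29.2% and 23.5%, 31.8% and 35.0%, and 52.4% and 61.9%. Such distances name a neighbour and not a target. Over all 208, 137 tiles overlapped a protein-coding gene, and the other 71 lay a median of 16177 bp from the nearest. A measured CpG lay in such a gene in 63.0% of the 208, against 58.1% of all tiles.

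Tiles of the 20 in genes with known roles in signalling and chromatin included Arid1b, a subunit of the BAF chromatin-remodelling complex. Its intronic tile was at 62.3% and 62.8% in WT, 58.8% and 66.2% in hSTAT5B, and 83.0% and 82.8% in hSTAT5BN642H. Cd276, which encodes the B7-H3 immune checkpoint ligand, was at 29.0% and 34%, 34% and 26.9%, and 50.5% and 58.8%. The tile nearest to Tgfbr3, a coreceptor of TGF-β, 16570 bp away, was at 34.6% and 24.5%, 45.6% and 24.9%, and 64.7% and 59.8%, and here the hSTAT5B libraries were far apart. Cbfa2t3, a corepressor of the ETO family, was at 28.4% and 22.7%, 27.7% and 28.4%, and 63.9% and 42.3%, with hSTAT5BN642H replicate 1 well above replicate 2 and a difference of 15.5 points without it, in place of 26.3. Pik3c3, the class III phosphoinositide 3-kinase of autophagy, had a tile 2747 bp away with 49 CpGs, 33 of them above, at 55.7% and 46.8%, 54.5% and 52.7%, and 79.7% and 74.7%. With at least 20 reads per CpG the difference of that tile was 8.89 points in place of 24.8, and with pooled reads it was 16.1. Its start lay in the next tile, also a member, at 48.7% and 51.0%, 70.2% and 59.8%, and 88.7% and 75.5%.

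The remaining tiles of the 20 were nearest to Impg1 and in or at Atp2b2, Rin3, Arap1, Slit1, BC016579, and 1700012B09Rik. Their differences ran from 16.5 points in Slit1, an axon guidance gene, to 25.9 in the tile holding the start of Atp2b2, a plasma membrane calcium pump. The Atp2b2 tile was at 56.2% and 41.8% in WT, 52.8% and 52.5% in hSTAT5B, and 73.6% and 79.9% in hSTAT5BN642H, so that its WT libraries were further apart than the median difference of 13.0 points over the 208 tiles. The levels of the 20 tiles are shown in the plot of leading tiles by library.

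**Figure D5:**
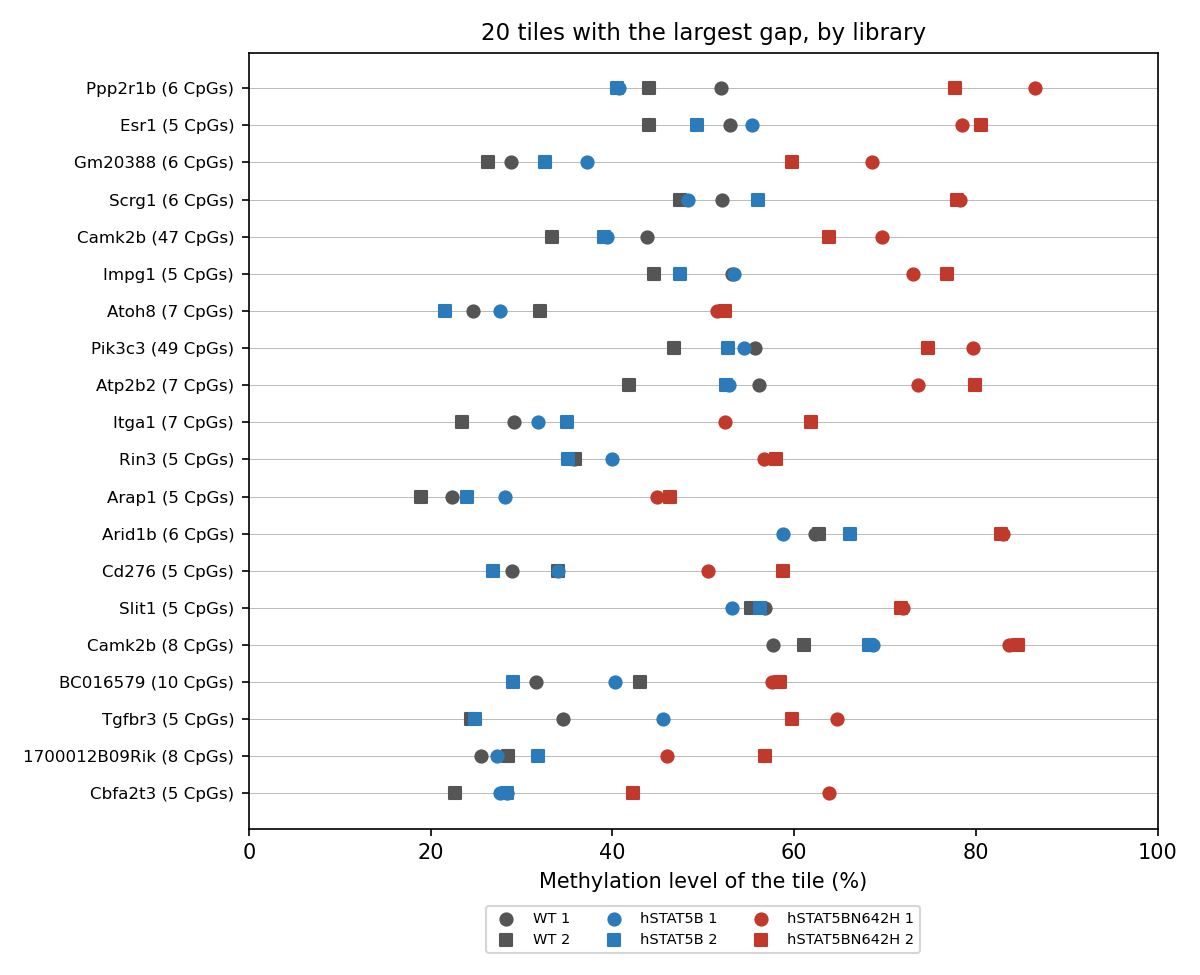
Methylation level (%) of the 20 tiles with the largest gap, with 1 point per library and the number of CpGs in parentheses. Both hSTAT5BN642H libraries (red) lie to the right of the WT (grey) and hSTAT5B (blue) libraries in every row, which is what the rule required, by 25.7 points in Ppp2r1b and 13.9 in Cbfa2t3.

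Starts of protein-coding genes lay in 42 of the tiles. By a related measure starts were less frequent than in all tiles, lying within 1 kb of a measured CpG in 18.8% of members, against 27.8%. Of these 42, 16 were under 20% in WT, 26 were at 20% to 80%, and none was at 80% or more, and the median difference was 14.2 points, against 12.5 in the 166 tiles without a start. The highest difference, 29.4 points, was at Nfam1, a receptor that activates NFAT signalling, at 27.8% and 36.9% in WT, 38.5% and 49.9% in hSTAT5B, and 73.3% and 62.1% in hSTAT5BN642H. Hlf, a factor of blood stem cells, was at 49.6% and 43.6%, 46.2% and 38.2%, and 61.6% and 64.4%. With pooled reads the Hlf difference was 11.5 points in place of 18.6. Hlf held 2 further member tiles, both intronic. Lrrn3 was at 28.5% and 21.3%, 29.7% and 24.9%, and 44.7% and 42.6%, with 10 CpGs. Kifc3, a kinesin, was at 54.8% and 61.3%, 66.2% and 67.5%, and 80.2% and 83.8%, with 13 of 19 CpGs above. The hSTAT5B libraries lay between those of WT and hSTAT5BN642H at Nfam1 and Kifc3, and overlapped those of WT at Hlf and Lrrn3.

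Of the 14 tiles that hold both a start and a CpG in a CGI, 13 were under 20% in WT, and the other was that of Ahnak2. In the Hoxc11 tile, of a homeobox gene, they were 12.4% and 13.3% in WT, 13.7% and 11.8% in hSTAT5B, and 25.5% and 24.7% in hSTAT5BN642H. The tile at the start of Ttll3 was at 5.92% and 10.3%, 14.3% and 13.5%, and 38.7% and 22.8%, over 12 CpGs. At Ttll3 the hSTAT5BN642H libraries differed from each other more than the WT and hSTAT5B libraries did from one another, and without replicate 1 the difference was 11.8 points in place of 19.7. Bhlhe22, a basic helix-loop-helix gene, was at 2.02% and 1.59%, 3.48% and 0.311%, and 11.2% and 13.2%. H2-Q1, an MHC class I gene of a family with near-identical copies where reads can be misplaced, was at 2.35% and 2.54%, 3.95% and 3.37%, and 10.3% and 10%. Tent2, a poly(A) polymerase, was at 2.02% and 2.29%, 0.981% and 1.20%, and 8.28% and 12.2%, and all 16 of its CpGs were in a CGI. With at least 5 reads per CpG the Bhlhe22 difference was 2.03 points in place of 10.3, and the Tent2 difference was 3.46 in place of 8.60. With 20 reads that of Hoxc11 was 7.96 in place of 12.3. In the 28 tiles with a CpG in a CGI the median difference was 10.5 points.

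Other starts in member tiles included those of Syt8, Trip6, Anks1, Tifab, Cdo1, Angpt2, Ahnak2, Epb41l4b, Myo1h, Sh3pxd2a, Cmya5, Col6a5, Tfap2d, Tgfb1i1, Ncf1, Rps6ka1, Pdlim2, Gabra5, Drc1, Fgd2, Pcdh9, Slc2a10, Slc15a3, Fam184a, and Itpka. Angpt2, an angiopoietin, was at 16.1% and 14.2% in WT, 20.7% and 16.9% in hSTAT5B, and 30.0% and 43.7% in hSTAT5BN642H. There the hSTAT5B libraries were above WT, and the difference of hSTAT5BN642H was 13.0 points without its replicate 2, in place of 19.9. Rps6ka1, a kinase downstream of ERK, was at 30.1% and 41.4%, 45.0% and 42.8%, and 58.3% and 51.4%. Ncf1, a subunit of the phagocyte oxidase, was at 76.0% and 66.6%, 78.9% and 73.1%, and 85.3% and 89.1%, with 1 of its 7 CpGs above. At that tile the mean of several CpGs, more than any CpG by itself, met the margin.

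Over all lists together, 5 of 357 tested tiles (1.40%) were members, against 0.466% of all tiles. Of the tiles tested in or within 10 kb of a listed gene, members were 0 of 48 for STAT5 targets, 0 of 42 for cytotoxic effectors, 1 of 32 for naive and memory T cell genes, 0 of 17 for inhibitory and costimulatory receptors, 2 of 39 for T cell receptor signalling, 0 of 52 for DNA methylation and polycomb genes, 0 of 46 for cell cycle genes, and 2 of 82 for tumour suppressors and T cell lymphoma genes. The median difference over these tiles was -0.883 to 0.530 points, list by list, against -0.419 over all tiles. With 5 members in all, nothing is read from the share, and 1 or 2 members are too few to describe a list.

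Cd247 encodes the zeta chain of the T cell receptor complex, and its intronic tile was at 16.7% and 18.9% in WT, 18.6% and 16.4% in hSTAT5B, and 27.4% and 32.6% in hSTAT5BN642H. The Stat3 tile, which also lies within 10 kb of Stat5a, was at 36.3% and 33.8%, 37.3% and 37.3%, and 49.6% and 46.0%, with 4 of 13 CpGs above. Runx2, a Runt family factor, was at 77.4% and 71.2%, 71% and 68.1%, and 87.9% and 84.6%. At Runx2 the hSTAT5B libraries were below both WT libraries, and at Stat3 they were above them. Cxcr5, a chemokine receptor of follicular cells, was at 42.1% and 41.6%, 48.5% and 47.9%, and 54.3% and 55.2%. Its difference of 9.72 points was 14.7 with at least 5 reads per CpG and 6.83 with pooled reads. The tile at the start of Slc15a3, a lysosomal peptide transporter near the T cell gene Cd6, was at 27.5% and 20.9%, 35.6% and 32.7%, and 44.4% and 40.8%. The WT and hSTAT5B libraries overlapped at Cd247, and hSTAT5B lay between the other genotypes at Cxcr5 and Slc15a3.

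Several other genes with a known role in lymphocytes were near member tiles and were picked out after their values were seen. A tile 16079 bp from Socs3, a feedback inhibitor of JAK/STAT signalling, was at 21.5% and 23.6% in WT, 28.7% and 28.3% in hSTAT5B, and 38.7% and 38.0% in hSTAT5BN642H, with 7 of 13 CpGs above. A tile in Zmiz1, a cofactor of Notch signalling, was at 23.3% and 16.4%, 30.7% and 33.0%, and 43.3% and 45.9%. Nod2, an intracellular sensor, was at 68.5% and 69.9%, 67.6% and 72.3%, and 87.8% and 83.1%, in 11 coding CpGs. At Socs3 and Zmiz1 the hSTAT5B libraries lay between those of the other genotypes, and at Nod2 they overlapped WT. Both Dtx1 tiles, in a gene of the Notch pathway, are adjacent, and differed by 14.7 and 9.23 points. Gse1 and Hlf each held 3 member tiles. The 3 Hlf tiles, which are adjacent, differed by 18.6, 11.4, and 7.79 points. Fgd2, Pik3c3, Ptpdc1, and Slit1 had 2 each.

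The rule set no order between hSTAT5B and WT, but it used the levels of all 4 of these libraries, so the counts that follow are a description. Over the 208 tiles the mean of hSTAT5B lay above that of WT in 149 (71.6%, against 53.5% of all tiles), with a median difference of 2.17 points, against 0.148. Both hSTAT5B libraries lay above both WT libraries in 64 (30.8%), against 18.7% of all tiles, and below both in 13 (6.25%), against 15.2%. Among the 4 libraries outside hSTAT5BN642H, WT replicate 2 was the lowest in 86 tiles and hSTAT5B replicate 1 in 21. The limma model over all 44600 tiles, on the log2 ratio of methylated to unmethylated reads, called 0 (0%) at an adjusted p of 0.05, and the smallest adjusted p among the 208 was 0.780. At an unadjusted p of 0.05 it passed 2718 of the 44600 tiles, 1545 of them higher in hSTAT5B. Of the 208 members it passed 7, all higher in hSTAT5B, and nothing is read from so few. A quasi-binomial model of the same reads called 1 tile, which was not a member.

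For hSTAT5BN642H against the mean of the other genotypes, the same limma model called 0 tiles (0%), with a smallest adjusted p of 0.516, and passed 3783 at an unadjusted p of 0.05, 1143 of them higher. Of the 208, 160 were among the 3783. The quasi-binomial model called 299 tiles (0.670%), of which 153 were higher and 82 were members. The rule used this contrast, so these member counts describe the choice and nothing is read from them.

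By place, the tiles had a smaller share of CpGs in CGIs and in soft-masked repeats than all tiles. Of their CpGs, 11.1% were in CGIs, against 33.3% of all, 11.9% on the shores of CGIs, against 9.80%, 41.3% in introns, against 32.8%, 10.5% in coding exons, against 11.5%, 6.87% in untranslated exons, against 12.2%, and 41.3% between genes, against 43.6%. Starts lay within 1 kb of a measured CpG in 18.8%, against 27.8%, and within 10 kb in 42.8%, against 42.9%. Soft-masked repeats held 20.7% of the CpGs, against 27.8%. They held most of the measured CpGs in 9.13% of the tiles, against 25.5%. At least 1 measured CpG lay in a CGI in 13.5% of the tiles, against 26.1%. Place was not described for the tiles chosen for other pairs. The GC content was 48.2% and the number of reference CpGs 77.5 per tile at the median, against 46.5% and 78.0.

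Fewer CpGs were measured in the tiles. The median was 7, against 8 for all, and 25% had 10 or more, against 38.3%, while 28.8% had exactly 5, against 21.4%. Tiles chosen for the 14 other pairs had a median of 5 or 6 CpGs. The palindromic STAT5 motif TTCNNNGAA, which reads the same on both strands, was present in 77.4% of the tiles, against 78.0% of all, and within 150 bp of a measured CpG in 19.7%, against 21.8%. A match is a description of the letters and not a binding site. The tiles thus held it about as often as others of the same length.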

How the data were processed

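RRBS was performed on CD8+ T cells of 6 mice, 2 per genotype. Per the labels and the methods of the study, the authors trimmed reads with Trimmomatic and aligned them to GRCm38 (mm10) with BSMAP in RRBS mode. Versions are not given in the sources used here. Every deposited file gives methylated and total read counts per CpG, which are not normalized, beside a score that the authors derived from the methylated share and that served here only as a check of the counts. All columns of per-sample values were used, so 0 were left out.

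Genes were taken from GENCODE M21 and the UCSC rule (longer than 200 bp, more than 50% GC, more than 0.600 of the CpGs that base composition predicts) gave 16191 CGIs in GRCm38 after soft-masking. The gene of a tile was the protein-coding gene it overlaps (the shortest where several do), or otherwise the nearest. Tiles were fitted with limma 3.58.1 in R 4.3.3 on log2((methylated reads + 1)/(unmethylated reads + 1)) of reads pooled per tile, fitting the 6 libraries jointly, with p-values adjusted over 44600 tiles by the Benjamini-Hochberg method. That level weights CpGs by depth, unlike the level in the rule. A quasi-binomial model with a deviance F test was an alternative. The code was tested on simulated data. Tables were made with Python 3.11.15, numpy 2.4.6, pandas 2.3.3, numba 0.67.0, and matplotlib 3.10.9.

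Named were the 20 tiles with the largest gap, member tiles in or within 10 kb of a listed gene, member tiles holding a protein-coding start, and the tiles on either side of the margin. Some items that this rule or the marker list names are not reported here. The members, the lists, and the tests were chosen with earlier results of these data known. Alternatives were other minimums of reads and CpGs, pooled reads, shifted tiles, other margins, and leaving out each library. For the fits they were a replicate block, another offset, a trend, and the quasi-binomial model. The mRNA, ChIP, and drug experiments were not analysed here.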

Additional observations from a re-analysis of the deposited data

Results flagged for a closer look

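In 13 of the 208 tiles both hSTAT5B libraries lay below both WT libraries while both hSTAT5BN642H libraries lay above them, so that the transgene without the mutation and the mutant moved in opposite directions from WT. This order was not tested, and the comparisons of hSTAT5B and of hSTAT5BN642H with WT share the WT libraries. The same order of hSTAT5B below WT was found in 15.2% of all tiles, and 13 is 6.25% of the 208, which were chosen by a rule that used the levels of these libraries. The tile in Ppp2r1b had the widest differences from WT, of -7.39 points in hSTAT5B and 34.1 points in hSTAT5BN642H. Its 2 WT libraries were themselves apart, at 52.0% and 44.0%. For the tile in Runx2 the differences from WT were -4.74 and 11.9 points, and for the tile nearest to Srsf3, a splicing factor gene, they were -6.27 and 11.5.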

How the results depend on the processing

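The number of tiles depended on the minimums, and the hSTAT5BN642H pair stayed above the highest other pair in every setting run, by 1.17 to 5.30 times. With at least 5 reads per CpG there were 324 tiles and 206 for the highest other pair, with 20 reads 105 and 30 (median WT level 44.7%), with 3 CpGs 449 and 260, and with 10 CpGs 52 and 19 (53.0%). Of the 208 tiles, all of which were still tested at 5 reads, 135 (64.9%) were among the 324. At 20 reads fewer tiles could be tested, and 61 of the 208 (29.3%) were among the 105. A margin of 10 points left 53 and 10 (37.4%), and a margin of 3 points gave 446 and 319. The median WT level was 41.0% with pooled reads, where 122 of the 270 tiles were shared with the 208, and 43.1% with tiles shifted by 2500 bases. Leaving out each library in turn gave 284 to 640 tiles and 214 to 422 for the highest other pair, or other library, with a median WT level of 45.5% to 49.8%. Fewer libraries have to differ in these settings, so counts of both kinds were higher, and the excess was smallest without WT replicate 2 (284 and 243). The median difference at left-out CpGs was 5.16 to 8.79 points without each library, the lowest without hSTAT5BN642H replicate 1. limma called 0 tiles in both comparisons under all its settings, and the quasi-binomial model 1 and 299. With a replicate block it called 0 and 0. Deviations of libraries with the same number correlated at -0.00336, -0.0075, and 0.0175, so no pairing by number was seen in these values. Whether mice shared a litter or batch is not given. Differences of the 60 named tiles kept their sign in all 559 values recomputed, and 44 moved by more than the spread between libraries. The rule had fixed the sign of the values that leave out a library, so those could not have reversed. Leaving out a library also shifts a difference by less than this spread. All 44 thus came from settings that changed the reads or CpGs used, which are a minor part of the 559 values. With at least 5 reads the differences at Anks1 (9.58 points), Ahnak2 (9.06), Pcdh9 (7.81), Pdlim2 (4.95), Fam184a (3.33), Gabra5 (3.02), and Itpka (2.88) fell by over 1.5 times. With pooled reads those at Syt8 (10.4), Epb41l4b (6.10), Slc2a10 (4.72), and Col6a5 (4.59) did so too. At Esr1 and Scrg1 the differences were 21.4 and 19.4 points with at least 5 reads, in place of 29.1 and 27.1. Precision is limited by 2 mice per genotype, tiles of few CpGs, and reads without molecular identifiers.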

Other observations

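Chromosome X was outside the rule. By the same margins, 2 of its 1221 tested tiles were higher in both hSTAT5BN642H libraries, against 0 to 2 for the 14 other pairs, and 1 was lower.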
